A study of Homo sapiens with 12 samples.

Results

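The 6 mitochondrial mRNAs (mt-mRNAs) MT-ND1, MT-ND2, MT-ND3, MT-ND4L, MT-ND4 and MT-ND5 encode membrane subunits of respiratory complex I from the + strand of human mitochondrial DNA (mtDNA). They were chosen by gene identity and strand from the 35 genes of the RNA-seq tables, which comprised 13 mt-mRNA genes and 22 mt-tRNA genes. Each gene had a sense and an antisense count, giving 12 features of 70, and 12 of 12 held at least 10 counts in every sample, with a lowest count of 30. RNA-seq was performed on mitochondrial-enriched RNA of human embryonic kidney cells (line HEK293T) in 3 PDE12+/+ and 3 PDE12-/- samples of the 12 samples in the study. Both genotypes shared the Flp-In T-REx background, and the labels of these 6 samples name no transgene. The PDE12-/- cells had been made with zinc finger nucleases directed to exon 1 of PDE12 and grown out of a single cell, so the genotype was represented by a clonal line, and an effect of the clone cannot be told apart from one of the genotype. The labels number the samples of a genotype as repeats and do not say that these were separate cultures, so p-values measure the spread between these samples, which may be technical. PDE12 itself and markers of the cell type are nuclear genes and were not analysed here, so neither the knockout nor the cell type was checked in these tables.

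Complex I oxidises NADH, passes the electrons to ubiquinone and pumps protons across the inner mitochondrial membrane, and its membrane arm is built around subunits made inside the organelle. Each strand of mtDNA is transcribed as long precursors, and release of the tRNAs that lie between the coding genes frees most mRNAs. The mitochondrial poly(A) polymerase mtPAP then adds short poly(A) tails to most mRNAs, and these complete several of the stop codons. PDE12 is a mitochondrial exoribonuclease that removes adenosines from 3′ ends. Transcription of the opposite strand yields MT-ND6, the remaining complex I subunit encoded in mtDNA, and several tRNAs, together with RNA that is antisense to the genes of the + strand.

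The members are shown by the last bases of each gene, because the end of the reading frame sets which of them depend on added adenosines. Coordinates refer to the mitochondrial genome of GRCh38, + strand, with gene limits from GENCODE release 44, and each gene is a single exon, of which the annotation sets only the TAA of MT-ND4L and MT-ND5 outside the coding part. Capitals mark the bases after the last sense codon, which form the start of a stop codon or a complete one.
MT-ND1: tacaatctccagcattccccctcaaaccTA
MT-ND2: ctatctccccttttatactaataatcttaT
MT-ND3: gactacaaaaaggattagactgaaccgaaT
MT-ND4L: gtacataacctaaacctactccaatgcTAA
MT-ND4: accccgacatcattaccgggttttcctctT
MT-ND5: ctcatcctaaccctactcctaatcacaTAA
These are chrM:4233-4262, chrM:5482-5511, chrM:10375-10404, chrM:10737-10766, chrM:12108-12137 and chrM:14119-14148, in that order. In 4 of 6 members, MT-ND1, MT-ND2, MT-ND3 and MT-ND4, the stop codon lacked 1 or 2 bases that an added A tail supplies, whereas MT-ND4L and MT-ND5 ended in a complete TAA.

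The 6 genes were annotated at 3307 to 4262 (MT-ND1, ENSG00000198888, 956 nt), 4470 to 5511 (MT-ND2, ENSG00000198763, 1042 nt), 10059 to 10404 (MT-ND3, ENSG00000198840, 346 nt), 10470 to 10766 (MT-ND4L, ENSG00000212907, 297 nt), 10760 to 12137 (MT-ND4, ENSG00000198886, 1378 nt) and 12337 to 14148 (MT-ND5, ENSG00000198786, 1812 nt). MT-ND4L and MT-ND4 are read from one bicistronic mRNA, and their annotated frames shared 7 nt, from 10760 to 10766. In the stretch chrM:10749-10778, shown for this overlap, capitals run from the MT-ND4 start codon ATG to the MT-ND4L stop codon TAA.
MT-ND4L and MT-ND4: aacctactccaATGCTAAaactaatcgtcc
The frames opened with ATA in MT-ND1, MT-ND3 and MT-ND5, with ATT in MT-ND2 and with ATG in MT-ND4L and MT-ND4. Codons for lysine, whose tRNA is encoded in mtDNA, numbered 7 in MT-ND1, 12 in MT-ND2, 3 in MT-ND3, 0 in MT-ND4L, 11 in MT-ND4 and 21 in MT-ND5, and 49 of the 54 were AAA. GC content lay between 40.2% in MT-ND3 and 47.7% in MT-ND1. By a cut of 95% identity, near-identical nuclear copies existed over nearly the whole of 2 members. Alignments of at least 100 nt at 95% identity or more covered 100% of MT-ND2, with a best copy on chromosome 1 at 98.4% identity, and 99.9% of MT-ND4, with a best copy on chromosome 5 at 95.8% identity. They covered 36.8% of MT-ND1 and none of MT-ND3, MT-ND4L or MT-ND5. Below this cut, chromosome 5 held full-length copies of MT-ND4L at 94.9% identity, of MT-ND5 at 93.0% and of MT-ND3 at 86.4%. How the authors' mapping divided reads between these copies was not tested, so the counts carry this uncertainty. MT-ND2, MT-ND4 and MT-ND4L had the closest copies over their length.

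Counts over all 70 features summed to between 36338 and 104708 in PDE12+/+ and between 67261 and 91730 in PDE12-/-. PDE12+/+ replicate 1 was the shallowest library, with 3090 sense and 1145 antisense counts in the 6 genes, against 8960 to 12669 sense and 1761 to 3115 antisense counts in the other samples. Samples of one genotype differed from each other by more than sampling noise, with chi-square values of 15.5 to 63.7 per degree of freedom. Scaling factors from TMM, the trimmed mean of M values, ranged from 0.777 in PDE12+/+ replicate 2 to 1.37 in PDE12-/- replicate 1.

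Expressed per length, MT-ND3 was the most abundant member and MT-ND2 and MT-ND5 were the least abundant. MT-ND3, a small membrane subunit near the junction of the membrane and peripheral arms, had between 54159.9 and 89803 TMM-scaled CPM per kb, which are counts relative to the scaled total of the sample and to gene length. MT-ND4L, a small subunit in the centre of the membrane arm, followed with 21476 to 57485 CPM per kb, and MT-ND4, a proton-pumping antiporter-like subunit, with 16502 to 33351 CPM per kb. The order MT-ND3, MT-ND4L, MT-ND4 held in 6 of 6 samples. Per-kb levels of such short genes also depend on how read pairs reaching over a gene end were assigned, which is not given in the sources used here.

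MT-ND1, which contributes to the ubiquinone-binding site, had 8782, 14380 and 13379.6 CPM per kb in PDE12+/+ replicates 1, 2 and 3, and 15541, 19070.4 and 13789 CPM per kb in PDE12-/- replicates 1, 2 and 3. The genotypes overlapped, since PDE12-/- replicate 3 lay below PDE12+/+ replicate 2. MT-ND5, the antiporter-like subunit at the far end of the membrane arm, had 6859, 10773 and 13012 CPM per kb in PDE12+/+ and 9247, 13849 and 12151 CPM per kb in PDE12-/-. Within each sample MT-ND1 exceeded MT-ND5, by a ratio of 1.03 to 1.68.

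MT-ND2, another antiporter-like subunit, had 5444, 7309.9 and 9617 CPM per kb in PDE12+/+ replicates 1, 2 and 3, and 11823, 15040.1 and 14064 CPM per kb in PDE12-/- replicates 1, 2 and 3. The lowest PDE12-/- sample exceeded the highest PDE12+/+ sample, and MT-ND2 was the only one of the 6 members whose scaled sense levels did not overlap between genotypes. Over all 13 sense mt-mRNAs 7.69% did not overlap in this measure, and over all features 14.3%. MT-ND2 lay below MT-ND5 in 3 of 3 PDE12+/+ samples and above it in 3 of 3 PDE12-/- samples. Apart from this exchange, neighbouring members kept their order in all samples with the exception of MT-ND1 and MT-ND2 in PDE12-/- replicate 3, although the ranges of neighbours over the 6 samples overlapped for every adjacent pair.

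**Figure D1:**
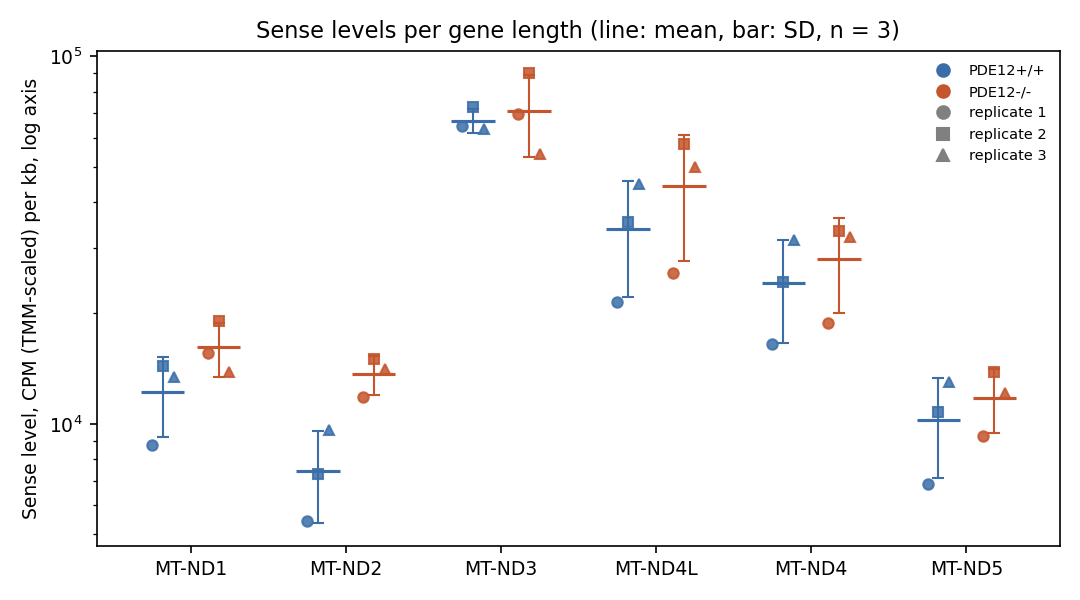
Sense levels of the 6 complex I mt-mRNAs of the + strand in TMM-scaled CPM per kb of gene length, on a log axis, with 1 symbol per sample, a line at the group mean and a bar of 1 SD (n = 3 per genotype). MT-ND3 was highest in every sample, and the genotypes were apart for MT-ND2 alone.

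The comparison of PDE12-/- with PDE12+/+ asks whether loss of the exoribonuclease alters the abundance of these transcripts. No sense feature of the members passed edgeR's quasi-likelihood test at a Benjamini-Hochberg adjusted p-value of 0.05 in the fit on genotype alone, where 0% of the 70 features were called in all. At an unadjusted p under 0.05 this fit gave 1 of the 6 members, MT-ND2, and 7.14% of all features. DESeq2 called 0 of the 6, with 1 at an unadjusted p under 0.05, beside 3 of the 70 features. The log2 fold change was above 0 for 6 of 6 members, with a median of 0.30, beside a median of 0.11 over all sense features, of which 60% were above 0, and beside 69.2% of the 13 sense mt-mRNAs. For all 6 this direction also held with DESeq2, library totals, the count filter and the replicate block, but MT-ND3 and MT-ND5 turned below 0 when single samples were left out.

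MT-ND2 had the largest difference of the members, with a log2 fold change of 0.87 ± 0.34 (SE, n = 3 per genotype) and a Benjamini-Hochberg adjusted p of 0.285 in the edgeR test. Deviations of same-numbered samples from their group means correlated at 0.615, 0.251 and 0.348, with no differently numbered samples compared beside them. The labels do not say that same-numbered samples were prepared together. With the replicate number as a block the MT-ND2 value was 0.90 ± 0.26 (adjusted p = 0.0140, the same edgeR test). In that blocked fit 5.71% of all features were called, and 1.43% were called as higher in PDE12-/-, which was MT-ND2 itself. The call was made only with all 3 pairs in this fit. Leaving out pair 1, 2 or 3 gave blocked values of 0.84, 0.82 and 1.19 with adjusted p-values of 0.422, 0.163 and 0.402 in edgeR's test. These fits held fewer samples, so the lost calls cannot tell dependence on a pair from the smaller number of samples. Without the block but with library totals in place of TMM, the MT-ND2 value was 1.12 (adjusted p = 0.0291 from edgeR), where 2.86% of features were called and the median of all features shifted from -0.02 to 0.20. DESeq2 gave 0.97 with an adjusted p of 0.235.

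MT-ND1 and MT-ND4L followed with log2 fold changes of 0.40 ± 0.34 and 0.38 ± 0.34 (SE, n = 3; adjusted p = 0.784 from edgeR for both). MT-ND4, MT-ND5 and MT-ND3 had 0.22 ± 0.34, 0.20 ± 0.34 and 0.09 ± 0.34. None of these 5 members passed in the blocked fit either, where MT-ND1 came closest with 0.42 (adjusted p = 0.368 from edgeR). Leaving out 1 library moved several of these values by more than 1.5 times. Without PDE12+/+ replicate 1 they were 0.22 for MT-ND1, 0.14 for MT-ND4L and 0.0076 for MT-ND4, and without PDE12+/+ replicate 3 they were 0.69, 0.89 and 0.70. No member was called in any of these fits. The standard errors of 0.335 to 0.341 for sense features hardly differed between members although their counts ran from 225 to 4401. The fit used 1 common dispersion, 0.0793, for all features, and the standard errors were derived from the fold change and the statistic of the quasi-likelihood test. Being so alike, they show little of each member's own spread.

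**Figure D2:**
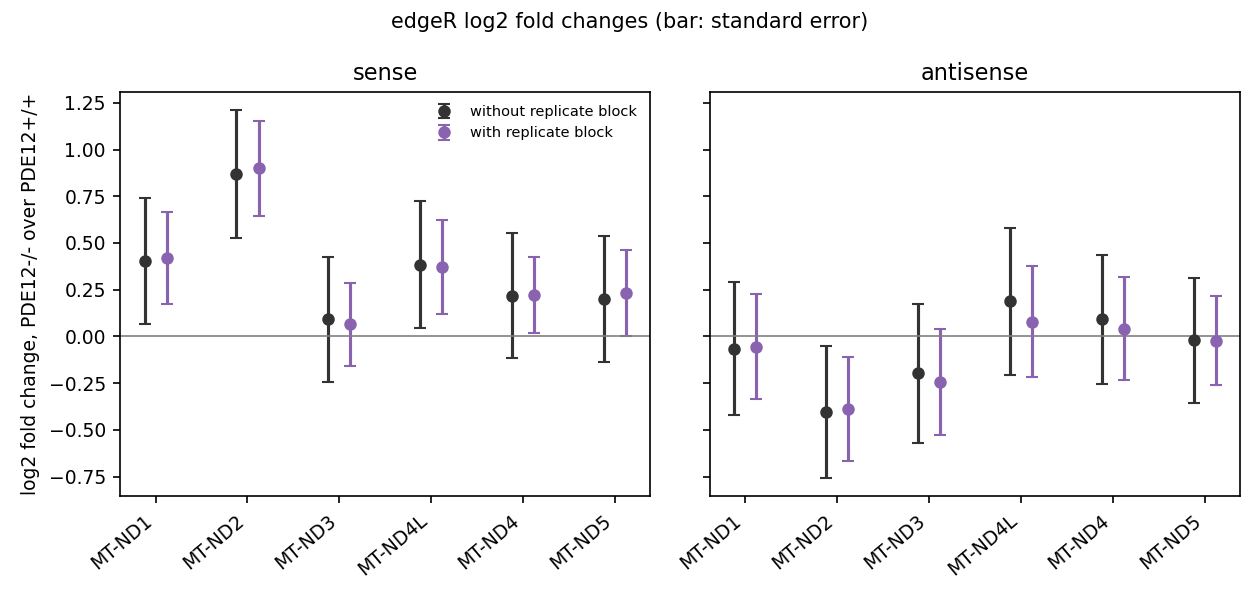
Log2 fold changes of PDE12-/- over PDE12+/+ from edgeR for sense (left) and antisense (right) features of the 6 genes, with bars of 1 standard error, in the fit on genotype alone (black) and with the replicate number as a block (purple). All 6 sense values lay above 0, from 0.09 for MT-ND3 to 0.87 for MT-ND2, and the antisense values lay on both sides of 0.

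Of the 7 other mt-mRNAs, 0 were called on genotype alone by edgeR, with 0 at an unadjusted p under 0.05 and 0 called by DESeq2. Their sense values ran from -0.57 for MT-CO2 to 0.54 for MT-ATP6, with 3 above and 4 below 0, and MT-ND6 had -0.20 ± 0.35. With the replicate block MT-CO1 and MT-CO2, mRNAs of cytochrome c oxidase subunits, were called as lower in PDE12-/-, at -0.56 and -0.62 with adjusted p-values of 5.49e-05 and 0.00307 in edgeR's test. With the block and library totals in place of TMM neither was called, at -0.33 and -0.38 with adjusted p-values of 0.0894 and 0.167 in edgeR's test, and MT-ATP6 and MT-CYB were called as higher. The 9 mt-tRNA genes beside the members, which mark the cleavage sites of the precursors, held 0 to 27 sense counts per sample and gene. Their sums were 17, 38 and 51 in PDE12+/+ and 63, 37 and 54 in PDE12-/-, and 0 of 9 were called in sense or in antisense by edgeR or DESeq2, nor did any have an unadjusted p under 0.05. Sense values ranged from -1.10 for MT-TR to 0.89 for MT-TI.

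A share of the total within each sample needs no scaling between libraries. The 6 members made up 9.72%, 9.34% and 12.8% of all sense mt-mRNA counts in PDE12+/+ replicates 1, 2 and 3, and 16.1%, 14.3% and 15.3% in PDE12-/- replicates 1, 2 and 3. The means were 10.6% ± 1.89 and 15.2% ± 0.882 (SD, n = 3), a difference of 4.61 percentage points, and the lowest PDE12-/- sample lay above the highest PDE12+/+ sample. MT-CO1, the most abundant mt-mRNA by counts in 5 of 6 samples, had the opposite difference in the same total, with 42.1% ± 1.16 in PDE12+/+ and 33.6% ± 3.16 in PDE12-/-, and MT-CO3 had 26.4% ± 2.31 and 28.8% ± 3.42. The shares of MT-ATP6, MT-ATP8 and MT-CYB were also higher in PDE12-/- without overlap, with ratios of means of 1.73, 1.73 and 1.59. MT-CO2, like MT-CO1, was lower without overlap, and MT-CO3 and MT-ND6 overlapped. A higher share in PDE12-/- was thus not particular to the members. Without MT-CO1 and MT-CO3 in the total, the members held 33.5% ± 2.57 and 40.5% ± 2.35, a difference of 7.06 percentage points. In relative terms this difference was smaller, with a ratio of means of 1.21, against 1.43 in the full total. Since shares of one total depend on each other, less MT-CO1 and more of the members cannot be told apart from these percentages.

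MT-ND2 took 0.707%, 0.646% and 1.02% of the sense mt-mRNA counts in PDE12+/+ and 1.95%, 1.46% and 1.75% in PDE12-/-. MT-ND1 took 1.05%, 1.17% and 1.31% in PDE12+/+ and 2.35%, 1.70% and 1.58% in PDE12-/-. For both genes every PDE12-/- sample lay above every PDE12+/+ sample, with ratios of means of 2.17 for MT-ND2 and 1.60 for MT-ND1. In a two-sided exact permutation test each had p = 0.1, the smallest that 3 against 3 samples allow, and 0.186 after Benjamini-Hochberg adjustment over the 13 mt-mRNAs.

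MT-ND4L had 0.795%, 0.890% and 1.36% in PDE12+/+ and 1.21%, 1.60% and 1.77% in PDE12-/-, so that only PDE12-/- replicate 1 lay within the PDE12+/+ range. MT-ND5 had 1.55%, 1.66% and 2.41% in PDE12+/+ and 2.65%, 2.35% and 2.63% in PDE12-/-, with PDE12-/- replicate 2 just below PDE12+/+ replicate 3. MT-ND4 had 2.84%, 2.85% and 4.44% in PDE12+/+ and 4.10%, 4.29% and 5.31% in PDE12-/-. The MT-ND4 genotypes overlapped through PDE12+/+ replicate 3, which lay above PDE12-/- replicates 1 and 2. MT-ND3 had 2.78%, 2.13% and 2.24% in PDE12+/+ and 3.80%, 2.90% and 2.24% in PDE12-/-. Here PDE12-/- replicate 3 equalled PDE12+/+ replicate 3 at this precision, and the exact permutation p for these 4 genes lay between 0.2 and 0.3.

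Genotypes did not overlap for 2 of 6 members, beside 53.8% of the 13 mt-mRNAs in either direction and 38.5% with PDE12-/- higher, so the members did not exceed the background in this count. Without PDE12+/+ replicate 3, which had the highest share of all members but MT-ND3 in its group, the count was 5 of 6, beside 76.9% of the 13 mt-mRNAs without the same sample. Within replicate numbers the PDE12-/- share was higher in 3 of 3 pairs for 6 of 6 members and for 3 of the 7 other mt-mRNAs, 2 more of which were lower in 3 of 3 pairs, so that 84.6% of the 13 kept one sign, with an exact sign-flip p of 0.25 for each gene, the smallest that 3 pairs allow. Wilson 95% intervals of these shares extended 0.0507 to 0.183 percentage points to either side, less than the SD between samples for each member in both genotypes. Intervals cover counting error only, as the reads carried no molecular identifiers.

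**Figure D3:**
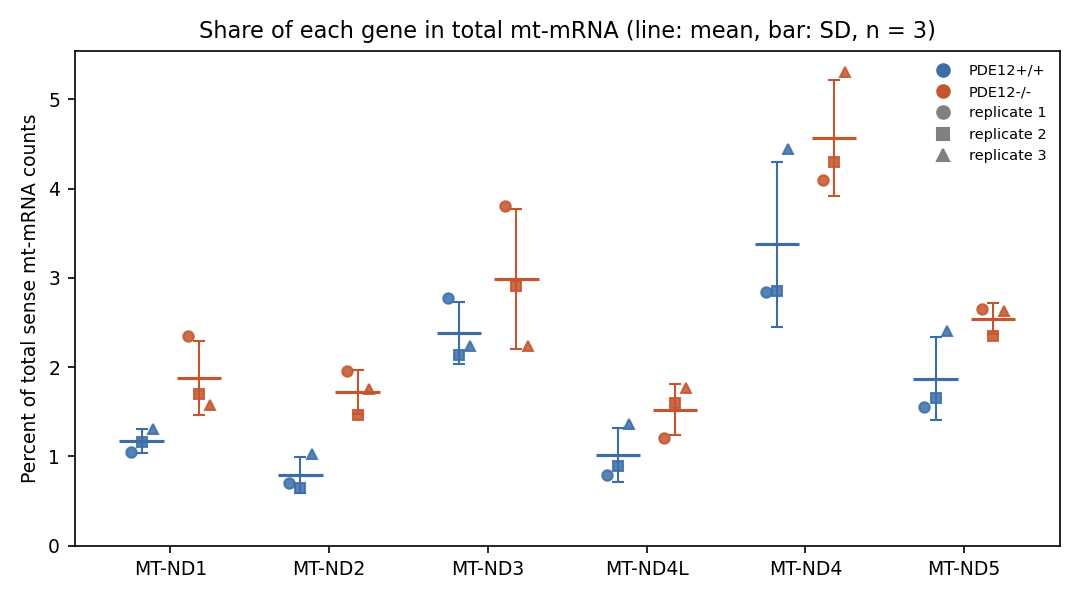
Percentage of all sense mt-mRNA counts taken by each of the 6 genes, with 1 symbol per sample, a line at the group mean and a bar of 1 SD (n = 3 per genotype). The genotypes were apart for MT-ND1 and MT-ND2 and overlapped for MT-ND3, MT-ND4L, MT-ND4 and MT-ND5.

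Ratios between members, in counts per kb, showed where the composition of the group differed. MT-ND2 relative to MT-ND5 was 0.794, 0.679 and 0.739 in PDE12+/+ replicates 1, 2 and 3, and 1.28, 1.09 and 1.16 in PDE12-/- replicates 1, 2 and 3. Relative to MT-ND4, MT-ND2 was at 0.330, 0.300 and 0.305 in PDE12+/+ and at 0.630, 0.451 and 0.437 in PDE12-/-. In both ratios each PDE12-/- sample exceeded each PDE12+/+ sample, and the same held against MT-ND3 and MT-ND4L. MT-ND1 relative to MT-ND2 was lower in PDE12-/-, with 1.61, 1.97 and 1.39 in PDE12+/+ and 1.31, 1.27 and 0.980 in PDE12-/-.

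The genotypes were thus apart in 5 of 5 ratios that contained MT-ND2 and in 1 of the other 10, MT-ND1 to MT-ND3. This made 6 of 15 member ratios, beside 43.6% of the 78 ratios among the 13 mt-mRNAs, so the count as such was close to the background. Being apart from every other member was not particular to MT-ND2, since the ratios of MT-CO2 to all 6 members were apart too. Those of MT-CO1 were apart for all members but MT-ND3, and MT-ND2 overlapped in its ratios to MT-ATP8 and MT-CYB. Ratios share their members and are given as a description without a test. Among the remaining member ratios, MT-ND4 to MT-ND5 was on average 2.36 ± 0.0893 in PDE12+/+ and 2.36 ± 0.313 in PDE12-/- (SD, n = 3). MT-ND4L to MT-ND4, the reading frames of the bicistronic mRNA, had 1.30, 1.45 and 1.42 in PDE12+/+ and 1.37, 1.72 and 1.55 in PDE12-/-, and these overlapped. As a fraction of the 6 members in counts per kb, MT-ND2 was at 4.77% ± 0.608 in PDE12+/+ and 7.47% ± 0.777 in PDE12-/- (SD, n = 3) without overlap, and the other 5 overlapped between genotypes, with MT-ND3 at 44.1% ± 8.09 and 38.7% ± 7.70.

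Antisense RNA was counted at every member in every sample. MT-ND5, which lies next to MT-ND6 on the opposite strand, had 8014, 10387 and 8038 antisense CPM per kb in PDE12+/+ and 10223, 7820.3 and 8009.6 in PDE12-/-. It was the highest of the 6 in 6 of 6 samples, at 1.59 to 5.46 times the antisense level of the other members, and its range did not overlap that of MT-ND3, at 2686 to 5028 CPM per kb. MT-ND4 had 2701 to 5147, MT-ND2 2207 to 3844, MT-ND1 2096 to 3191 and MT-ND4L 1444 to 4126 antisense CPM per kb, and the ranges of these 4 genes and MT-ND3 overlapped.

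Transcription of the opposite strand passes MT-ND6 before it reaches MT-ND5 and then, at growing distance, the other members. From the 3′ end of MT-ND6 the genes began 0 nt (MT-ND5), 2011 nt (MT-ND4), 3382 nt (MT-ND4L), 3744 nt (MT-ND3), 8637 nt (MT-ND2) and 9886 nt (MT-ND1) away. Antisense levels did not decline steadily over these distances, since MT-ND4L lay below MT-ND2 in 5 of 6 samples although it is nearer to MT-ND6. The antisense level of MT-ND5 per kb was close to the sense level of MT-ND6 per kb, with ratios of 1.24, 0.831 and 1.00 in PDE12+/+ and 1.38, 0.900 and 1.07 in PDE12-/-, which overlapped. These ratios assume that forward and reverse in the tables refer to the genome, which decides what is sense for MT-ND6 but not for the 6 members.

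**Figure D4:**
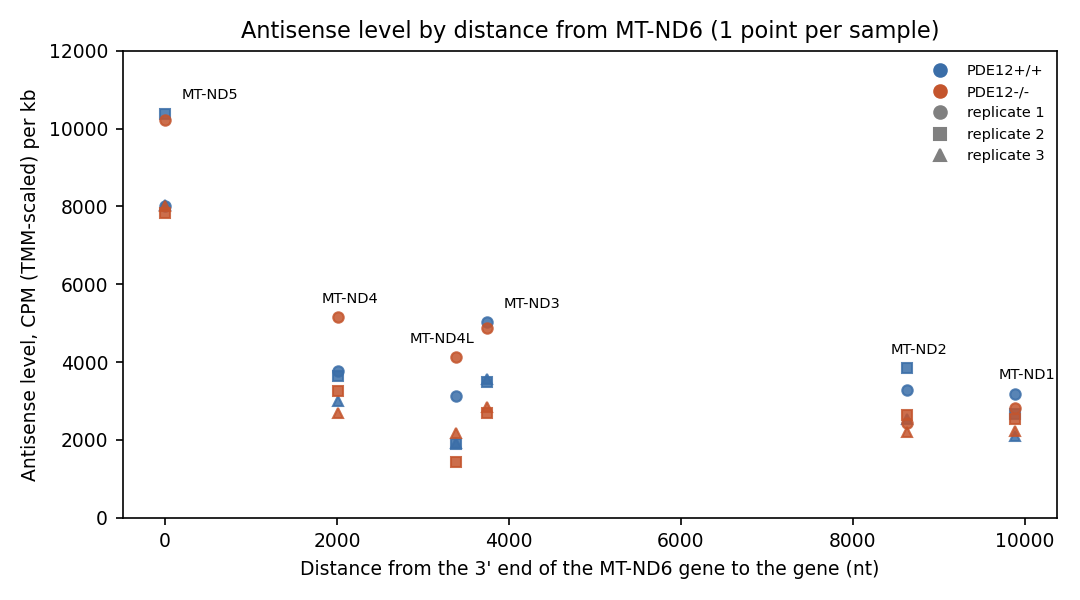
Antisense level of each of the 6 genes in TMM-scaled CPM per kb, plotted against the distance in nt from the 3′ end of MT-ND6 along the transcript of the opposite strand, with 1 symbol per sample. MT-ND5 at 0 nt stood above the other 5 genes in each of the 6 samples.

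No antisense feature of the members was called by edgeR's quasi-likelihood test, with 0 at an unadjusted p under 0.05 and 0 called by DESeq2, beside 0% of all features. Log2 fold changes were 0.19 ± 0.39 for MT-ND4L, 0.09 ± 0.34 for MT-ND4, -0.02 ± 0.34 for MT-ND5, -0.07 ± 0.35 for MT-ND1, -0.20 ± 0.37 for MT-ND3 and -0.41 ± 0.35 for MT-ND2 (SE, n = 3). With 2 above and 4 below 0, the direction turned on scaling, and library totals put 5 of 6 above 0. MT-ND2 was below 0 under both scalings, at -0.41 and -0.15.

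The antisense share, the antisense percentage of a gene's counts, depends on neither scaling nor length. For MT-ND2 it was 37.7%, 34.5% and 20.9% in PDE12+/+ replicates 1, 2 and 3, and 17.1%, 15.0% and 13.6% in PDE12-/- replicates 1, 2 and 3. The genotypes did not overlap, at 31.0% ± 8.92 and 15.2% ± 1.80 (SD, n = 3), yet the nearest samples were close, since the Wilson 95% interval of PDE12+/+ replicate 3 was 18.5% to 23.5% and that of PDE12-/- replicate 1 was 15.2% to 19.2%. The exact permutation p was 0.1, the smallest 3 against 3 allow, and 0.722 adjusted over the 13 genes. MT-ND2 was the only one of 6 members without overlap, beside 7.69% of the 13 genes, which was MT-ND2 itself. The antisense counts of MT-ND2 were 136, 326 and 207 in PDE12+/+ and 235, 193 and 228 in PDE12-/-, whereas its sense counts were 225, 620 and 785 against 1136, 1096 and 1453.

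MT-ND5 had the highest antisense share of the members, at 53.9%, 49.1% and 38.2% in PDE12+/+ and 52.5%, 36.1% and 39.7% in PDE12-/-. More antisense than sense reads were counted at this gene in replicate 1 of both genotypes. MT-ND1 had 26.7%, 15.7% and 13.5% in PDE12+/+ and 15.4%, 11.7% and 13.9% in PDE12-/-. Its higher PDE12+/+ mean came from replicate 1, and the remaining values overlapped.

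MT-ND4 had 18.6%, 13.02% and 8.71% in PDE12+/+ and 21.5%, 8.87% and 7.74% in PDE12-/-. MT-ND4L had 12.8%, 5.11% and 4.13% in PDE12+/+ and 13.8%, 2.45% and 4.18% in PDE12-/-. MT-ND3, with the lowest mean share, had 7.24%, 4.57% and 5.36% in PDE12+/+ and 6.59%, 2.90% and 5.01% in PDE12-/-. In these 3 genes, as in the other members, replicate 1 was highest in both genotypes, and the genotypes overlapped. Exact permutation p-values for the 5 members other than MT-ND2 lay between 0.4 and 0.9.

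**Figure D5:**
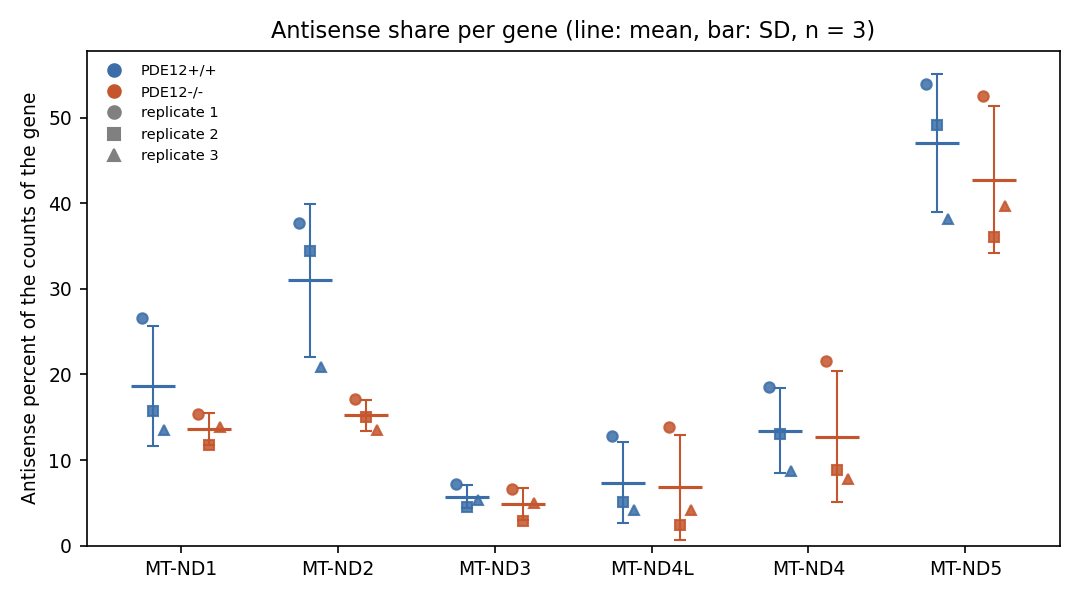
Antisense percentage of the counts of each of the 6 genes, with 1 symbol per sample, a line at the group mean and a bar of 1 SD (n = 3 per genotype). MT-ND5 had the highest share, MT-ND2 was the only gene whose genotypes did not overlap, and the circles of replicate 1 were the highest of their group in 12 of the 12 groups drawn.

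Over the 6 genes together 27.0%, 22.6% and 16.8% of counts were antisense in PDE12+/+ replicates 1, 2 and 3, and 25.0%, 14.1% and 15.98% in PDE12-/- replicates 1, 2 and 3. The means of 22.1% ± 5.16 and 18.4% ± 5.81 (SD, n = 3) overlapped, and replicate 1 was the highest of both genotypes. In the 7 other mt-mRNA genes the antisense share was 3.29% ± 0.753 in PDE12+/+ and 4.27% ± 2.07 in PDE12-/-, with means of single genes between 1.33% and 35.2% in PDE12+/+. The 6 members held 46.4% to 52.1% of all antisense counts on the 13 mt-mRNA genes and 9.34% to 16.1% of the sense counts. These fractions were not divided by gene length, and most sense counts lay on MT-CO1 and MT-CO3. In PDE12+/+, MT-ND6 and MT-CYB had mean antisense shares of 35.2% and 33.9%, below MT-ND5 but above the other members. Per kb, MT-CYB had a PDE12+/+ mean of 12328 antisense CPM, against 8813 for MT-ND5.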

How the data were processed

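RNA-seq of mitochondrial-enriched RNA from 3 PDE12+/+ and 3 PDE12-/- HEK293T samples was used, and the MPAT-Seq libraries were not used here. After Ribo-Zero Gold depletion and TruSeq Stranded Total RNA preparation, libraries were sequenced on a MiSeq. The authors trimmed reads with Trim Galore, mapped pairs with both mates longer than 20 nt to GRCh38 with Bowtie2, removed reads on the mt-rRNAs and parted the strands with Samtools, and generated counts with Rsubread. Versions and the rule for read pairs over 2 genes are not given in the sources used here. The deposited values are raw counts, whole numbers without normalization, for each strand of each mitochondrial gene. Columns were read as genome strands with GENCODE release 44. For the 6 genes the forward column is sense, and only MT-ND6 in the total depends on this reading.

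The 70 features were fitted in 1 table with edgeR 4.0.16 in R 4.3.3 (TMM scaling, common dispersion, quasi-likelihood test, genotype alone, no filter), with a threshold of 0.05 on Benjamini-Hochberg adjusted p-values. DESeq2 1.42.0 was an alternative. The fit was also run on simulated data with a lower dispersion than estimated here and without replicate structure. Its performance at the spread of these samples was therefore not tested. Shares were compared with two-sided exact permutation tests and Wilson 95% intervals (Python 3.11.15, SciPy 1.17.1). Levels are TMM-scaled CPM per kb of gene. Nuclear copies were found with BLAST+ 2.17.0. Depth is the total count over the mitochondrial genes, and it limits intervals on antisense shares to 0.700 to 4.97 percentage points on either side.

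Replicate numbers come from the labels, which do not say that same-numbered samples of both genotypes were prepared together. Deviations of same-numbered samples from their group means correlated at 0.615, 0.251 and 0.348 over the 37 features whose counts reached 10 in all samples. Correlations of differently numbered samples were not computed, so a shared batch was not tested. A blocked fit was set beside the other.

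Members and lists were chosen with earlier results of these data known. Named are the 6 members in both orientations, members of the other 2 lists (7 other mt-mRNAs, 9 neighbouring mt-tRNA genes) that passed the threshold or were highest or lowest, MT-ND6, and MT-CO1 and MT-CO3 where they bear on the total. The other mt-mRNAs are also named where their shares or ratios are set beside those of the members. Alternatives were the block, DESeq2, library totals, DESeq2 size factors, a minimum of 10 counts, separate fits of each orientation, other totals for the shares, and leaving out samples. Combinations with the block, the leave-one-out ratios and the same settings for the other lists were added after seeing the data.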

Additional observations from a re-analysis of the deposited data

How the results depend on the processing

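With the replicate block, 1 sense feature of the members was called, MT-ND2, and the same count of 1 came from library totals and from the block with at least 10 counts or with library totals, at log2 fold changes of 0.90, 1.12, 1.07 and 1.14. Over all fitted features these settings called 4 of 70, 2 of 70, 2 of 37 and 3 of 70, in that order. All refit the same counts, so they are not separate support. Pairing changed no other call of the members. Of the other mt-mRNAs, 2 were called with the block, 1 with library totals, 1 with the block and the count minimum, 2 with the block and library totals, and 2 with the block without replicate 2. Leaving out single samples without the block gave 0 calls in every list, and the count minimum left no sense feature of the 9 mt-tRNA genes to fit. The number of members whose shares of mt-mRNA did not overlap was 2 to 5 over the left-out samples, with 5 without PDE12+/+ replicate 3, beside 53.8% to 76.9% of the 13 mt-mRNAs, and 6 had the same sign in 3 of 3 pairs, beside 84.6%. For the antisense share these numbers were 1 to 2, with 2 without PDE12+/+ replicate 3, beside 7.69% to 23.1%, and 2 in the pairs, beside 46.2%. Member ratios apart numbered 6 to 8 of 15, beside 46.2% to 59% of the 78 ratios. The difference in the summed share was 7.06 points without MT-CO1 and MT-CO3 in the total and 3.97 to 5.69 points over the left-out samples, and that of the summed antisense share was -7.09 to -1.32. The 7.06 points belong to a smaller total, where the ratio of means was 1.21, against 1.43 in the full total.

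Uncalled log2 fold changes near 0 changed sign. MT-ND1 antisense was 0.0599 with DESeq2, 0.059 with its size factors, 0.19 with library totals, 0.12 with the count minimum, alone or with the block, 0.12 in a separate fit, 0.18 with the block and library totals, 0.0502 with the block without replicate 1, and -0.15 to 0.0826 over the left-out samples. MT-ND5 antisense was 0.0915 with DESeq2, 0.0917 with its size factors, 0.28 with library totals, 0.18 with the count minimum, 0.15 with the block added, 0.22 with the block and library totals, 0.13 in a separate fit, 0.17 and 0.0811 with the block without replicates 2 and 3, and -0.16 to 0.11 over the left-out samples. MT-ND3 antisense was 0.0934 with library totals and 0.0004 with the count minimum. MT-ND3 sense was -0.0588 with the block without replicate 2 and -0.11 to 0.25 over the left-out samples. MT-ND5 sense was -0.0177 to 0.64, the lowest without PDE12+/+ replicate 1. MT-ND4L and MT-ND4 antisense were -0.0503 and -0.11 with the block without replicate 1, and -0.31 to 0.47 and -0.22 to 0.27 over the left-out samples. Differences in antisense share ranged from -1.77 to 0.0735 points for MT-ND3, -4.02 to 2.20 for MT-ND4L and -5.13 to 1.85 for MT-ND4. The cause of these turns was not tested. Counting error of the antisense shares, at most 4.97 points, came beside SDs between samples of up to 8.92 points.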
